A study of Arabidopsis thaliana with 8 samples.

Results

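The genes described here are 9 *Arabidopsis thaliana* genes of chlorophyll synthesis, carotenoid synthesis and the photosystems, taken from 27444 annotated nuclear protein-coding genes. They were chosen by function, with earlier results of these data known. For chlorophyll these were *HEMA1* (AT1G58290), *GUN4* (AT3G59400), *GUN5* (AT5G13630), *PORA* (AT5G54190), *PORB* (AT4G27440) and *PORC* (AT1G03630). *PSY* (AT5G17230) was taken for carotenoids, and *PSBQ-2* (AT4G05180) and *STN7* (AT1G68830) for the thylakoid. For each gene, all peak summits from 10 kb upstream of the transcription start site (TSS) to the gene end were collected, and a gene without any summit was kept. The 9 windows held 10 of the 6828 peaks in the 4 deposited lists and 3 of the 1064 reproducible sites, a site being a group of summits less than 100 bp apart that came from at least 2 lists.

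The study mapped where the transcription factor PIF3 sits on DNA in dark-grown seedlings by ChIP-seq, which sequences the DNA that is precipitated with a protein. P3M seedlings carry a fusion of PIF3 to MYC epitope repeats, driven by the constitutive 35S promoter, in the *pif3-3* null mutant, so the level and the place of expression are those of the transgene. WT seedlings are Columbia plants without the epitope and are the negative control for the anti-MYC antibody. Each genotype had 4 biological replicates of whole 2-d-old seedlings, grown in the dark after their seeds had received 3 h of white light at 21°C and a 15 min far-red pulse. For each library, 4 immunoprecipitates were pooled, and MACS called the peaks of each replicate by setting its P3M library against its parallel WT library.

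PIF3 is a bHLH factor that accumulates in darkness and is degraded after light activates the phytochromes, and it binds the G-box, CACGTG, and the related PBE-box, CACATG. A dark-grown seedling holds etioplasts, in which protochlorophyllide is held until light comes. PORA, PORB and PORC are reductases that turn protochlorophyllide into chlorophyllide in the light. Upstream in that pathway, *HEMA1* encodes glutamyl-tRNA reductase, *GUN5* the large subunit of magnesium chelatase and *GUN4* the porphyrin-binding activator of that chelatase. PSY, phytoene synthase, makes the first dedicated carotenoid. PSBQ-2 is an extrinsic subunit of photosystem II on its oxygen-evolving side, and STN7 is the thylakoid kinase that phosphorylates light-harvesting proteins in state transitions.

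Of the 9 genes, 3 had a reproducible site, namely *PSY*, *PSBQ-2* and *STN7*, whereas 10.7% of all protein-coding genes had one in the same window (9.59% of all 37899 annotated nuclear genes). With *PORC* added, 4 of the 9 had a summit in any list, beside 41.7% of protein-coding genes (37.5% of all annotated nuclear genes). Only *PSBQ-2* had a site in all 4 lists, which 1.89% of protein-coding genes had. None of the 6 chlorophyll genes had a reproducible site, and 5 of them, *PORA*, *PORB*, *HEMA1*, *GUN4* and *GUN5*, had no summit of any list. No set test was applied, since the genes were chosen with results of these data known. The count of 3 rested on 2 of the lists: without replicate 2, and likewise without replicate 4, only the *PSBQ-2* site was left.

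The DNA of the 3 sites is shown because the motifs at the summits are where the genes differ. Each is the 201 bp centred on the mean summit, read 5′ to 3′ on the strand of the gene from TAIR10.1, with every G-box and PBE-box in capitals. None of the 3 overlaps an annotated gene.
PSY site, chr5:5664174-5664374, minus strand: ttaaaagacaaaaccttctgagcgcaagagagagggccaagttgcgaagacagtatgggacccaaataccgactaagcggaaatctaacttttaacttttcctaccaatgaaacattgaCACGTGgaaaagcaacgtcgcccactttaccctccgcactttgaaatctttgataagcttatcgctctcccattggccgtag
PSBQ-2 site, chr4:2673270-2673470, minus strand: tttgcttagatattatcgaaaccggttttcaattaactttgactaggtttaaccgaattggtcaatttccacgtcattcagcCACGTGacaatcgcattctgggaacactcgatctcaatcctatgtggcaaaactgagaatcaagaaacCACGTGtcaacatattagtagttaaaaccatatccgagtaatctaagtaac
STN7 site, chr1:25878980-25879180, minus strand: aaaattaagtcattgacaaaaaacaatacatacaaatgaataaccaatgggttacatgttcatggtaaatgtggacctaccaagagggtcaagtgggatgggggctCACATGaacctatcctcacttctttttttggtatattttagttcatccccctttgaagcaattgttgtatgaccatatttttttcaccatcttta
The *PSY* site holds 1 G-box and the *PSBQ-2* site 2, while the *STN7* site holds no G-box and 1 PBE-box. Among all 1064 sites, 50.1% have a G-box and 35.6% a PBE-box less than 100 bp from the mean summit, and 13.2% have both. From the mean summit to the nearest base of the motif, the distance was 19 bp for the G-box of *PSY*, 13 bp for that of *PSBQ-2* and 6 bp for the PBE-box of *STN7*. At 29.4% of the sites a G-box lay nearer than at *PSY*, and at 22.3% nearer than at *PSBQ-2*. The nearest G-box to the *STN7* site was 7620 bp away. At least 2 G-boxes within 201 bp, as at *PSBQ-2*, were found at 165 of the 1064 sites, which is 15.5%. The GC content was 44.8% at *PSY*, 37.8% at *PSBQ-2* and 35.3% at *STN7*, against a median of 38.8% over all sites (10th to 90th percentile, 32.3 to 46.3%).

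Within 3 kb upstream of their TSS, the 9 genes had 4 G-boxes in all, at *PSY* and *PSBQ-2* alone, with 2 at each. A G-box in this stretch is found at 31.7% of protein-coding genes and 2 or more at 8.90%. Of the 4, 3 lay less than 100 bp from the mean summit of a site, beside 6.20% of the G-boxes within 3 kb upstream of a protein-coding gene. The other, at *PSY*, lay that near a summit of 1 list. The genes were chosen with results of these data known, so this is a description only. All 4 G-boxes are shown with 7 bases on either side, on the strand of the gene, to compare their flanks, with the G-box in capitals.
PSY, 1167 bp upstream (chr5:5664157-5664176, minus strand): taggctcCACGTGgcatctc
PSY, 1253 bp upstream (chr5:5664243-5664262, minus strand): acattgaCACGTGgaaaagc
PSBQ-2, 72 bp upstream (chr4:2673308-2673327, minus strand): aagaaacCACGTGtcaacat
PSBQ-2, 140 bp upstream (chr4:2673376-2673395, minus strand): attcagcCACGTGacaatcg
Every one of the 4 reads CCACGTG on one strand or the other. Over the 746 G-boxes less than 100 bp from the mean summit of any site the share is 57.0%, and over all 14508 nuclear G-boxes it is 42.4%; the flank was looked at after the 4 sequences were seen, so it is a description only. The starts of the G-boxes are 86 bp apart at *PSY* and 68 bp apart at *PSBQ-2*. At *PSY*, the G-box nearer to the gene fell just outside the limit, at 105 bp from the mean summit.

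**Figure D1:**
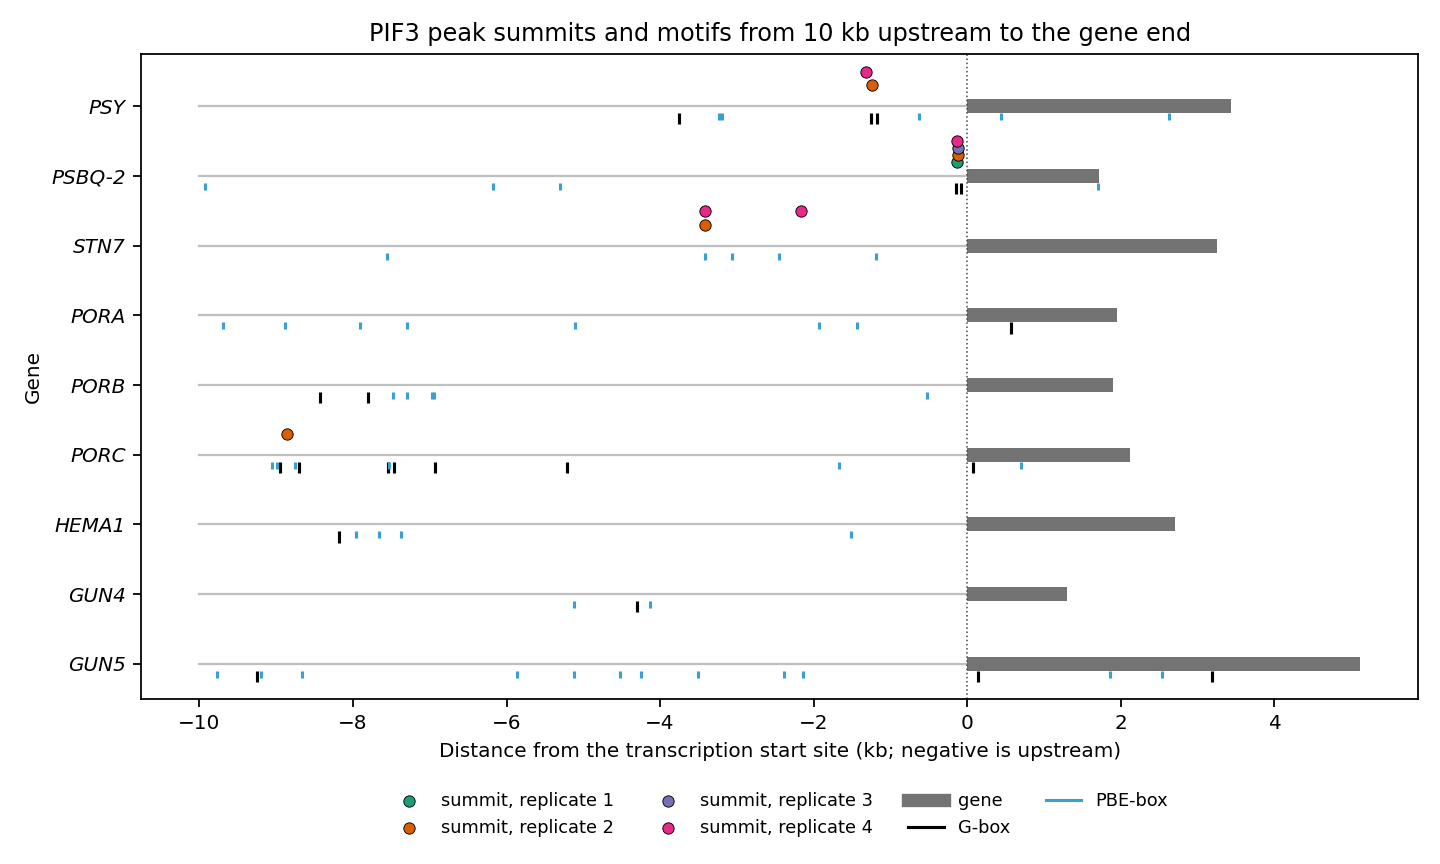
Position of every peak summit (dots, coloured by replicate), G-box (long black ticks) and PBE-box (short blue ticks) relative to the TSS of each of the 9 genes, in kb, with the gene as a grey bar. Summits of all 4 replicates stack at *PSBQ-2* beside its 2 G-boxes, *PSY* and *STN7* have stacked summits of replicates 2 and 4 only, and 5 genes have none.

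*PSBQ-2* lies on chromosome 4 from 2671523 to 2673243 on the minus strand. Its summits were 130, 122, 124 and 130 bp upstream of the TSS in replicates 1 to 4, a spread of 8 bp. Only 3.43% of the 175 sites found in all 4 lists had a smaller spread, and their median was 27 bp. The TSS was also close by comparison, since at 19.3% of all sites the nearest protein-coding TSS was nearer than the 127 bp between the mean summit and that of *PSBQ-2*. The divergent neighbour *ATK5* (AT4G05190), which encodes a kinesin, starts 1691 to 1699 bp from the summits.

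The *PSBQ-2* peak held 83 tags in replicate 1 (95% exact Poisson interval 66.1 to 102.9, for counting error only), 76 in replicate 2 (59.9 to 95.1), 126 in replicate 3 (105.0 to 150.0) and 167 in replicate 4 (142.6 to 194.3). Its fold enrichment, which MACS gives at the summit over the local background, was 7.10, 4.69, 5.68 and 7.40, with a mean of 6.22 ± 1.26 (SD, n = 4). The scores, -10 times the log10 of the MACS p-value, were 87.5, 58.6, 99.6 and 218.6. In each list the fold ranked high, above 86.9, 72.1, 80.3 and 86.8% of the peaks of replicates 1 to 4. The tags per 100 bp of peak ranked lower, above 35.8, 7.57, 40.0 and 54.2% of the peaks. The same site therefore stood well above the middle of each list by fold and below the middle of replicates 1, 2 and 3 by tag density. Set beside the 175 sites of all 4 lists, its fold was near the middle in replicates 1 and 3, where 59.4% and 52.0% of them were lower, and low in replicates 2 and 4, where 13.1% and 16.6% were lower.

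The 3 sites whose folds over the 4 lists were most like those of *PSBQ-2*, out of 174, lay next to *SHOT1* (AT3G60400), *CYP702A3* (AT4G15310) and AT1G02350. Their Euclidean distances to it in log2 fold were 0.22, 0.26 and 0.39. The *SHOT1* site had folds of 6.88, 5.04, 5.11 and 7.98 in replicates 1 to 4, and the *CYP702A3* site had 6.97, 4.23, 4.92 and 7.68. The mean summits of the 3 sites lay 1026, 825 and 516 bp upstream of the TSS of these genes. Each of the 3 has a G-box less than 100 bp from its mean summit, as do 50.1% of all sites. The share among the sites of all 4 lists is not given here.

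*PSY* lies on chromosome 5 from 5659554 to 5662997 on the minus strand, and its site runs from 5664174 to 5664374, centred 1277 bp upstream of the TSS. No gene lies between, and the divergent neighbour *SDG40* (AT5G17240) starts 2591 bp from the summit of replicate 2 and 2508 bp from that of replicate 4. The summits of the 2 lists were 1235 bp upstream in replicate 2 and 1318 bp upstream in replicate 4, so that they lay 83 bp apart. This is a wide pair, since 97.7% of the 618 sites found in 2 lists had a smaller spread, with a median of 18 bp, and with summits joined at less than 50 bp *PSY* had no site. The G-box 1253 bp upstream lay 18 bp from the summit of replicate 2 and 60 bp from that of replicate 4.

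The *PSY* peak held 145 tags over 621 bp in replicate 2 (122.4 to 170.6) and 339 tags over 792 bp in replicate 4 (303.9 to 377.1), the largest tag count at any of the 9 genes. Its fold was 3.92 in replicate 2 and 4.37 in replicate 4, above 46.1% and 40.0% of the peaks of those lists, and above 15.2% and 16.8% of the 761 sites present in both lists. By tags per 100 bp, which were 23.3 and 42.8, it stood above 76.2% and 84.0% of the peaks of those lists. Among the 761 sites, it stood above 62.5% and 57.2% by this measure. *PSY* thus ranked higher by tag density than by fold in both lists, and *PSBQ-2* ranked the other way in all 4. No summit of replicate 1 or 3 fell in its window.

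*STN7* lies on chromosome 1 from 25872412 to 25875662 on the minus strand. Its site was 3416 bp upstream in replicate 2 and 3420 bp upstream in replicate 4, and 12.3% of the sites found in 2 lists had a spread below these 4 bp. The nearest TSS to the mean summit, at 1075 bp, is that of the divergent gene *RAV2* (AT1G68840), which encodes an AP2/B3 transcription factor, and no gene lies between the site and either TSS. In replicate 2 the peak held 70 tags over 395 bp (54.6 to 88.4) with a fold of 4.90, above 76.5% of its list. In replicate 4 it held 302 tags over 977 bp (268.9 to 338.1) with a fold of 8.95, above 92.7% of its list, the highest fold at any of the 9 genes. Beside the 761 sites present in both of these lists it stood lower, above 46.0% of them in replicate 2 and 75.7% in replicate 4. The score was 63.2 in replicate 2 and 316.9 in replicate 4. Tags per 100 bp were 17.7 and 30.9, which ranked above 22.1% and 55.0% of the peaks. Replicate 4 had another summit 2170 bp upstream, with 228 tags, a fold of 3.87 and neither motif within 201 bp, which no other list shared.

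**Figure D2:**
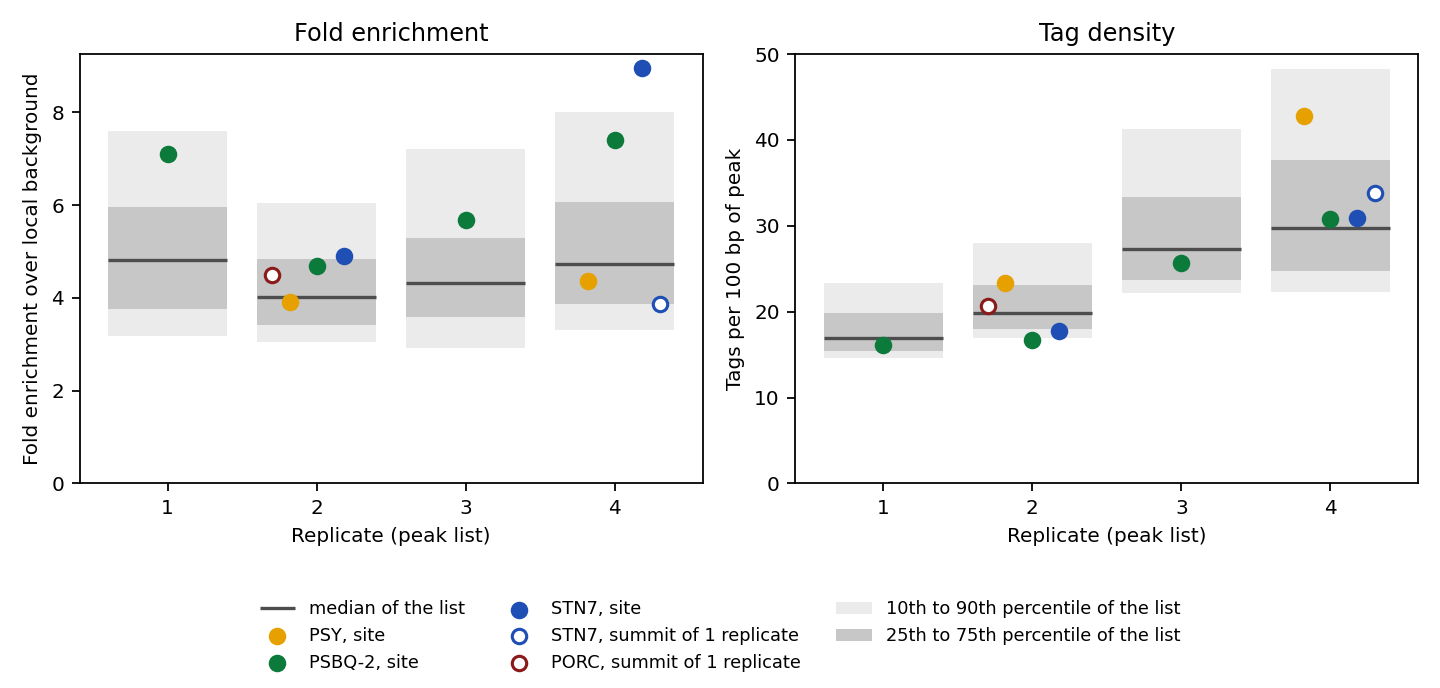
Fold enrichment over the local background (left) and tags per 100 bp of peak (right) at the *PSY*, *PSBQ-2*, *STN7* and *PORC* peaks in each replicate, with filled dots for reproducible sites and open dots for summits of 1 replicate. Grey bars give the 10th to 90th and 25th to 75th percentiles and lines the median of each list. In replicates 2 and 4, *PSY* is the lowest of the 3 sites by fold (3.92 and 4.37) and the highest by tag density (23.3 and 42.8 tags per 100 bp). In both, *STN7* is above *PSBQ-2* by fold and close to it by tag density (17.7 and 30.9 against 16.7 and 30.8).

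The 3 sites could be set side by side only in replicates 2 and 4, the 2 lists that hold them all. By fold the order was the same in both, with *STN7* (4.90 and 8.95) above *PSBQ-2* (4.69 and 7.40) above *PSY* (3.92 and 4.37). By tags per 100 bp, *PSY* was first in both (23.3 and 42.8), ahead of *STN7* (17.7 and 30.9) and *PSBQ-2* (16.7 and 30.8). Within a list, the log2 fold of *STN7* exceeded that of *PSBQ-2* by 0.17 ± 0.15 (mean ± SD, n = 2 lists) and that of *PSY* by 0.68 ± 0.50, and *PSBQ-2* exceeded *PSY* by 0.51 ± 0.35. The exact paired sign-flip test, two-sided, gave p = 0.50 for each of the 3 pairs (0.50 after Benjamini-Hochberg adjustment), which is the smallest p that 2 lists allow, so no difference between sites could pass. Over all 761 sites present in both lists, fold was higher in replicate 4 at 76.9%, with a median log2 difference (replicate 4 minus replicate 2) of 0.32 and 10th and 90th percentiles of -0.25 and 1.00. The difference was 0.16 at *PSY*, 0.66 at *PSBQ-2* and 0.87 at *STN7*, all within that range. The tag count in replicate 4 was 2.34 times that in replicate 2 at *PSY*, 2.2 times at *PSBQ-2* and 4.31 times at *STN7*, where the median over the 761 sites was 2.37. Per 100 bp the ratios came closer, at 1.83, 1.84 and 1.74, beside a median of 1.82. The library totals are not in the peak lists, so the depth behind each replicate is unknown here and tags were not compared across lists beyond these ratios. The study's methods state that libraries of the 1st and 2nd ChIP experiments were sequenced in 2 runs. Their reads were combined, with the aim of evener read counts.

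**Figure D3:**
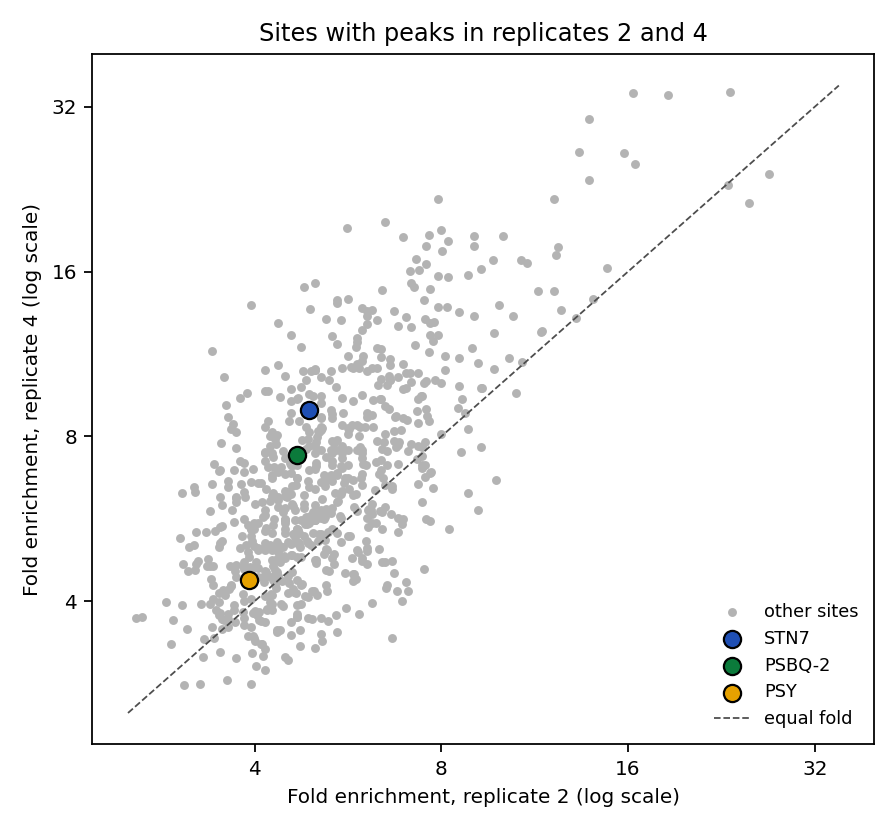
Fold enrichment in replicate 4 against replicate 2 at the 761 sites with a peak in both, on log axes, with the dashed line at equal fold. *STN7* (4.90, 8.95), *PSBQ-2* (4.69, 7.40) and *PSY* (3.92, 4.37) all lie above the line and inside the cloud of the other sites.

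The *PORC* window held a single summit, in replicate 2, 8860 bp upstream of the TSS, with 108 tags (88.6 to 130.4), a fold of 4.49 and a score of 74.1. It lies 183 bp inside *PSB27* (AT1G03600), which encodes a photosystem II assembly factor, and AT1G03610 and AT1G03620 stand between it and *PORC*. A G-box was 93 bp and a PBE-box 99 bp from this summit. By list, 1, 4, 1 and 3 of the 9 genes had a summit in replicates 1 to 4, beside 7.47, 25.8, 5.08 and 27.0% of protein-coding genes.

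At the 5 genes without a summit, the nearest one of any list was between 4082 bp from the TSS, at *PORB*, and 20789 bp from it, at *GUN5*. Each of these lay on the downstream side and past the gene end. *PORB* had a site of replicates 3 and 4 2196 bp beyond its end, with folds of 3.55 and 5.62, which is 634 bp upstream of the TSS of AT4G27450. *PORA*, *HEMA1* and *GUN4* had their nearest summits 10507, 11953 and 17258 bp from the TSS. The peak lists give no coverage outside peaks, so a level of binding below the cutoff of the authors (p of 1e-05) cannot be given for these genes.

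G-boxes were present in the windows of the 6 genes without a site, 15 in all, of which 4 lay inside the genes and 11 upstream. The nearest upstream one was 4294 bp from the TSS, at *GUN4*, and the others were 5214 bp away at *PORC*, 7808 bp at *PORB*, 8182 bp at *HEMA1* and 9255 bp at *GUN5*, with none upstream at *PORA*. Of the 15, 1 was less than 100 bp from a summit of any list, in the *PORC* window. The share of all G-boxes near a summit of any list is not given here. None of the 15 was less than 100 bp from the mean summit of a site. Over the whole genome, 5.14% of G-boxes were less than 100 bp from the mean summit of a site, and 6.20% of those within 3 kb upstream of a protein-coding gene were. Among protein-coding genes with a G-box in the 3 kb upstream, 15.1% had a reproducible site. Both such genes here, *PSY* and *PSBQ-2*, had one, but they were chosen with results of these data known, so no conclusion follows from this. PBE-boxes were commoner. The 3 kb upstream of 7 of the 9 genes held 10 of them, beside 75.3% of protein-coding genes with at least 1. None of the 10 was less than 100 bp from a summit. The share of all PBE-boxes that near a summit is not given here, so this count cannot be read as a trait of these genes.

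None of the 10 peaks had a low false discovery rate. The rate given by MACS was between 31.6%, for *STN7* in replicate 4, and 100%, which it was for *PSY* in replicate 4, *PSBQ-2* in replicates 1 and 3, and the second *STN7* summit. It was under 5% for 10, 115, 1 and 177 of the 696, 2517, 526 and 3089 peaks of replicates 1 to 4. At a p of 1e-10 or lower, single-list peaks were left at *PSY*, *PSBQ-2* and *STN7*, and no gene of the 9 kept a site. The scores behind this were 82.3 and 153.3 at *PSY* in replicates 2 and 4, and at *PSBQ-2* and *STN7* likewise only the peak of replicate 4 was above 100.

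The other genes of these pathways were described with 6 lists of 112 loci, of which 108 were listed under a symbol or synonym that the annotation gives for the locus, and 99 of these were not among the 9. A site lay in the window of 8 of the 99, or 8.08%, and a summit of any list in that of 40, or 40.4%. The shares of all protein-coding genes were 10.7% and 41.7%. Of the list for chlorophyll and tetrapyrrole synthesis, 0 of 31 genes had a site and 7 had a summit. Of the list for carotenoids and their isoprenoid supply, 6 of 24 had a site. The numbers were 1 of 12 for photosystem II, 1 of 12 for photosystem I, 1 of 22 for light-harvesting proteins and 2 of 7 for thylakoid kinases, phosphatases and electron flow. These counts by list include the members, so *PSY*, *PSBQ-2* and *STN7* are among the genes with a site. One of the 4 loci left out for their symbol, AT1G74470, annotated as geranylgeranyl reductase, had a site in all 4 lists, 8941 bp upstream with 8 genes between. With the left-out loci kept, the count for the chlorophyll list was 1 of 34.

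**Figure D4:**
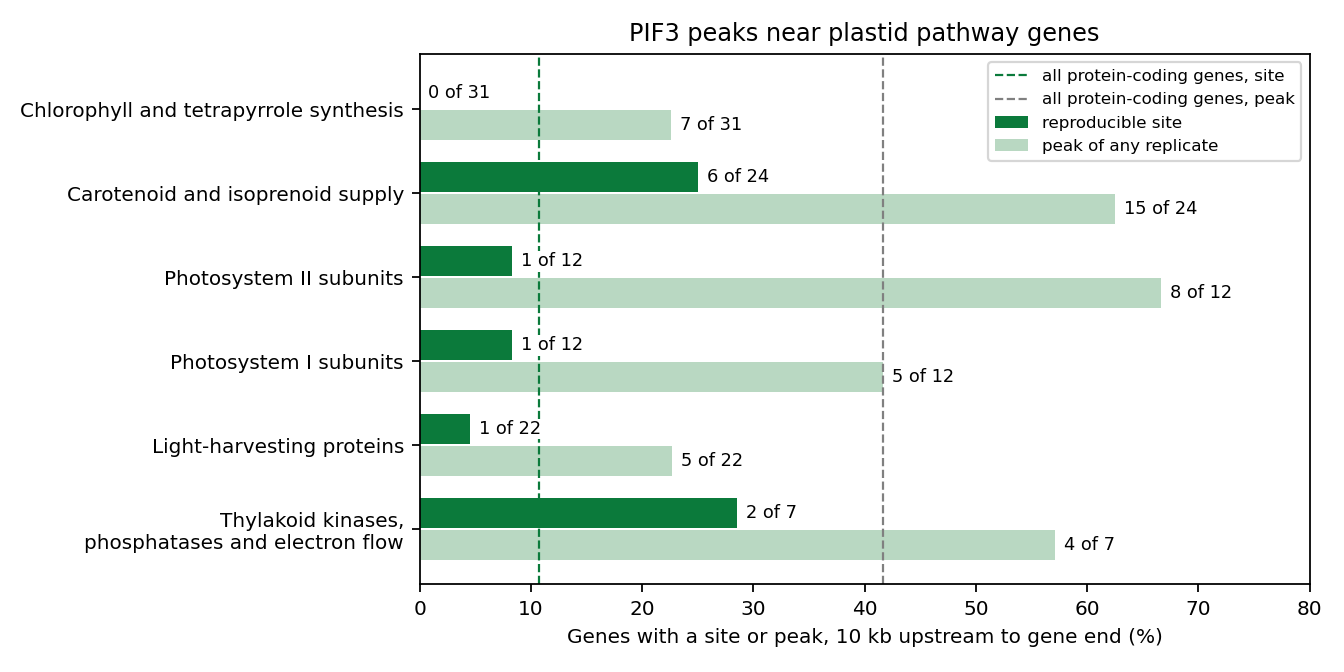
Percentage of the genes in each of 6 lists with a reproducible site (dark bars) or a summit of any replicate (light bars) from 10 kb upstream to the gene end, with the number of genes beside each bar. Dashed lines give the same for all protein-coding genes, 10.7% and 41.7%. The lists include the member genes. The chlorophyll list has 0 of 31 genes with a site (1 of 34 with the loci left out for their symbol) and the carotenoid list 6 of 24.

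Besides *PSY*, the carotenoid genes with a site were *BCH2*, *ZDS*, *CRTISO*, *ABA1* and *GGPS1*. *BCH2*, a beta-carotene hydroxylase gene, had its site 125 bp upstream of the TSS with a G-box 21 bp away, and folds of 6.35, 3.44 and 4.99 in replicates 2 to 4. For *ZDS*, *CRTISO*, *ABA1* and *GGPS1*, which encode zeta-carotene desaturase, carotenoid isomerase, zeaxanthin epoxidase and geranylgeranyl diphosphate synthase, the site was 4524, 8157, 8718 and 8885 bp upstream with 3, 2, 3 and 5 genes between. The TSS nearest to these 4 sites was that of AT3G04855 at 182 bp, *bZIP52* at 107 bp, *HEC1* at 128 bp and *BEH2* at 134 bp. *PSAL*, for a photosystem I subunit, and *LHCA2*, for a photosystem I antenna protein, had sites 4445 and 2968 bp upstream, nearest to AT4G12790 and *BRH1*. *PGRL1A*, which acts in cyclic electron flow, had a site 589 bp upstream in replicates 1 and 2, and the anthocyanin gene *LDOX* starts 188 bp from it. Another gene had the nearest TSS at 7 of the 8, leaving *BCH2* as the exception. The share of all protein-coding genes with a site for which this holds is not given here. A G-box was at 4 of the 8 sites, beside 50.1% of all sites. The window of 10 kb counts many sites that stand next to another gene, as the number of genes between shows.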

How the data were processed

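The 4 P3M and 4 WT libraries were processed by the authors, who aligned 36-nt reads to TAIR9 with Bowtie 0.12.7 after CASAVA 1.7.0 and called peaks with MACS 1.4.0rc2, per the submitters' processing notes and the study's methods. Only reads unique in the nuclear genome were kept. The deposited lists give, per peak, the count of P3M tags, a score (-10 times the log10 of the p-value), a fold enrichment over the local background and a false discovery rate in percent, all made by the authors with MACS and used here as deposited. Read totals are not in these lists, so depth is unknown, and intervals on tags cover counting error only. The amount of tissue is 4 g in the labels and about 2 g in the methods.

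Summits less than 100 bp apart from at least 2 lists were joined into a site of 201 bp at the mean summit. DNA sequence and gene models were those of RefSeq for TAIR10.1, a later annotation than TAIR9; all 6828 summits lay inside its chromosomes. The G-box CACGTG and the PBE-box CACATG were searched on both strands, less than 100 bp from a summit or in the 3 kb upstream. Percentiles among peaks are the share of peaks of the same list with a lower value, with ties split evenly. Among sites they are the share of sites with a lower value. No model was fitted; fold was compared between member sites with an exact paired sign-flip test over lists, planned for 3 or more shared lists and run on the 2 that these sites share. A listed gene was kept if its symbol was the annotated one or a synonym of it. The member genes, the 6 gene lists and the alternatives were chosen with earlier results of these data known. Genes are named if they are members, listed genes with a site, neighbours of a member's peak, or next to the 3 sites most like a member's site; AT1G74470, AT4G27450 and the neighbours of sites near other pathway genes were named after their values were seen. The procedure was tested on simulated data with planted sites. Python 3.11.15, numpy 2.4.6, scipy 1.17.1 and matplotlib 3.10.9 were used.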

Additional observations from a re-analysis of the deposited data

How the results depend on the processing

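Each count of genes with a site or summit is followed by the share of all protein-coding genes at the same setting. The count of 3 genes with a reproducible site (10.7%) stayed within 1.5 times under 11 of 17 alternatives. It was 1 (*PSBQ-2*) when at least 3 lists (4.66%) or all 4 lists (1.89%) were required and with 1 kb upstream (2.57%), and 0 at a p of 1e-10 or lower (4.3%). Leaving out 1 replicate at a time gave 1 without replicate 2 (6.71%) and without replicate 4 (5.39%). It gave 3 without replicate 1 (9.28%) and without replicate 3 (9.51%). It was 2 with summits less than 50 bp apart (*PSBQ-2* and *STN7*; 9.96%) and within 3 kb (*PSY* and *PSBQ-2*; 4.51%), and 4 with *PORB* when the window also ran 10 kb past the gene end (18.3%), an alternative chosen after seeing the data. The count of 4 genes with any summit (41.7%) was 1 within 1 kb (14.1%) and 3 without replicate 2 (29.3%). It stayed at 4 with any other replicate left out (29.3 to 41.5%). The 2 genes with a G-box at their site were the same below 50 and below 25 bp. Of all sites, 44.3% and 33.6% had a G-box that near. Of the 99 other pathway genes, 8 had a site (10.7%), 3 when at least 3 lists were required (4.66%), 5 within 5 kb (6.24%) and 3 within 3 kb (4.51%). The mean fold percentile of 43.1 at *PSY*, 81.5 at *PSBQ-2* and 84.6 at *STN7* became 80.1, 34.4 and 38.5 by tags per 100 bp and 66.3, 57.2 and 61.7 by score. By tags per 100 bp, the log2 difference to *PSY* turned to -0.43 at *STN7* and -0.48 at *PSBQ-2*; the cause was not tested. The test between sites on 2 shared lists was chosen after seeing the data. With no replicate block, the log2 fold differences of 0.17, 0.68 and 0.51 had p of 0.67, 0.33 and 0.33 (exact permutation test, 0.33 being the smallest possible). With 2 lists no call was possible with or without the pairing, so the tests cannot show whether the pairing matters. The peak lists hold no values below the cutoff of the authors, which limits what can be said of the 5 genes without a summit.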
